A study of Mus musculus with 24 samples.

Results

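The genes described here encode the proteins of the cytosolic ribosome. They were taken from the gene annotation in the deposited tables as every protein-coding gene whose symbol has the form Rpl or Rps with a number, plus Rplp0, Rplp1 and Rplp2, which gave 83 of 25369 genes. Of these, 43 are core proteins of the large subunit, 30 are core proteins of the small subunit, 3 form the stalk and 7 are paralogues of core proteins. No measured value entered the choice. RNA of the left quadriceps was sequenced from mice with Lama2-CMD, in which muscle fibres lack a working laminin of the basement membrane, and from WT mice, all 25 weeks old. Each genotype was studied on 4 backgrounds, the inbred strains C57BL/6J (called B6) and DBA/2J (called D2), and the recombinant inbred lines BXD-67 and BXD-87 (called 67 and 87) that descend from crosses of these strains. There were 3 libraries in each of the 8 groups. The groups were CMD and WT on B6, CMD and WT on 67, CMD and WT on 87, and CMD and WT on D2, with no treatment named. The labels give females only in 67 CMD and D2 CMD, and both sexes in the other 6 groups. In B6 and 87 they give more males than females in CMD, and more females than males in WT. Labelled sex and genotype are therefore unbalanced in all 4 strains. The Lama2 allele and the genotype of the WT animals beyond that word were not given in the labels, and each of the 24 libraries is a separate sample.

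A ribosome is built in the nucleolus from ribosomal RNA and one copy of most ribosomal proteins, and then exported to the cytoplasm, where it reads messenger RNA. The messenger RNAs of ribosomal proteins are abundant in every cell, and most of them start with a C followed by a run of pyrimidines, the terminal oligopyrimidine (TOP) motif, through which the kinase mTOR controls their translation. Striated muscle differs from other tissues in expressing Rpl3l, a close relative of Rpl3 that takes its place near the peptidyl transferase centre in mature fibres.

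The start of a few of these transcripts is shown because the TOP motif sits there. The genes shown are among those given with values below, and they differ in the letters near the annotated start. Each line gives 30 bases of RefSeq's promoter table on GRCm38.p6, 5′ to 3′ on the strand of the gene, with base 16 as the annotated start. Capitals mark a C followed by at least 4 pyrimidines, searched on the gene's strand within 10 bases of the start. The start used in muscle was not read here. A marked run is therefore not shown to be a TOP motif, nor its lack the absence of one. Rps12 is at chr10:23787195-23787224 (minus strand), Rplp2 at chr7:141447636-141447665 (plus), Rpl22l1 at chr3:28805493-28805522 (plus), Rpl3l at chr17:24727811-24727840 (plus) and Rplp0 at chr5:115559452-115559481 (plus).
Rps12: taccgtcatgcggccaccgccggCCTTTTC
Rplp2: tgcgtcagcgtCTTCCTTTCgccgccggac
Rpl22l1: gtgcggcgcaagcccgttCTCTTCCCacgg
Rpl3l: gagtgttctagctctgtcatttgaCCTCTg
Rplp0: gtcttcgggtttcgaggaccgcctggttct
The table held 62 of the 83 genes, and Rpl3 was not among them. The run was found in 36 of these 62 (58.1%), against 30.8% of the 27025 genes of the table and 32.2% of the 11425 table genes that were tested here. CCGGAAG, the letters of an Ets-family site, was found on either strand of the 300 bases around the start in 24 of 62 (38.7%), against 16.3% of the tested genes. AAGATGG, the core of a Yy1 site, was found in 9 of 62 (14.5%), against 6.82%. Matches of the last 2 can overlap in the letters AAG. The 3 patterns are matches of letters, and were not related to any expression value.

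The libraries held 32292613 to 51715975 exon reads, of which the 83 genes took 1.07 to 2.24%. Lama2 itself was at 16.04 to 23.9 CPM (read counts scaled to library size) in B6 CMD against 36.5 to 50.3 in B6 WT and at 12.9 to 19.5 in 87 CMD against 27.4 to 35.8 in 87 WT, and both differences passed (adjusted p = 0.00642 and 0.00939). In 67 the ranges were 19.996 to 33.8 CPM in CMD and 24.3 to 28.4 in WT, and in D2 they were 23.3 to 29.0 in CMD and 23.8 to 42.5 in WT, so Lama2 did not tell the genotypes apart there (adjusted p = 0.912 and 0.244). Sln, an inhibitor of the sarcoplasmic calcium pump, was raised in CMD in all 4 strains, by log2 fold changes of 6.52, 9.10, 10.11 and 5.60 in B6, 67, 87 and D2. Markers of mature fast fibres were read in every group, and their summed level was lower in all CMD libraries of each strain (114557 to 190491 CPM over all CMD libraries, 181626 to 255688 in WT). Of these 9 markers, 4 fell in B6, 7 in 67, 4 in 87 and 1 in D2. One of them, Myh1, rose in 67 and 87, by log2 fold changes of 4.29 and 4.19 (adjusted p = 0.00482 and 0.00534, edgeR). Reads of Y-linked genes went against the labelled sex in 4 D2 libraries (19 and 21 of WT, 22 and 24 of CMD), so the fit has no sex term. With labelled sex, or sex from those reads, as a term, the raised genes of the family counted below number 26 or 36 in B6 and 1 or 15 in D2. Calls over all genes were 2665 or 2978 in B6 and 3754 or 2482 in D2, against 2724 and 2986 without a sex term. Libraries 16 (87 CMD) and 23 (D2 CMD) stood apart from their groups, and results that rest on them are given with and without them. Lower transcript levels in whole muscle cannot be told apart between fewer cells of a type and less RNA per cell.

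Within this gene family the levels spanned a wide range. Per length, the highest mean levels over all libraries were those of Rplp1, one of the acidic stalk proteins, at 1168 TPM (a deposited unit that divides reads by transcript length and depth), Rpl23a, which sits at the exit of the tunnel for new proteins, at 973 TPM, and Rps29, a small zinc-binding protein of the small subunit, at 840 TPM. The lowest were the paralogues Rps4l at 2.65 TPM, Rpl39l at 0.748 TPM and Rpl10l at 0.0243 TPM. Ribosomal protein genes have many processed copies in the genome. Of the 83 genes, 80 shared at least 1 stretch of 58 bases, the length of a read, with a transcript of another gene in GENCODE vM21, and in 28 genes at least 50% of all such stretches were shared. Rps27 had the lowest share of uniquely placed reads at 0.264%, followed by Rpl10 at 6.56%, Rpl13a at 18.3%, Rpl9 at 20.3% and Rps23 at 21.7%, so the levels of these 5 are uncertain.

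The summed level of all 83 genes was higher in CMD than in WT in B6 and in 87, and the groups overlapped in 67 and in D2. In B6 the 3 CMD libraries held 15054, 16853 and 13365 CPM, and the 3 WT libraries 12696, 11717 and 11481 CPM. In 87 they held 25280, 16685 and 19397 CPM in CMD, against 12974, 16075 and 14269 CPM in WT. In both strains every CMD library lay above every WT library, and library 16 was the highest of all 24. In 67 the values were 16135, 14588 and 17405 CPM in CMD and 14482, 17342 and 14472 CPM in WT. In D2 they were 14529, 15779 and 11926 CPM in CMD and 11996, 13014 and 12836 CPM in WT. The ratio of geometric means, CMD over WT, was 1.26-fold in B6, 1.04-fold in 67, 1.401-fold in 87 and 1.11-fold in D2, and a summed level was given no test.

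**Figure D1:**
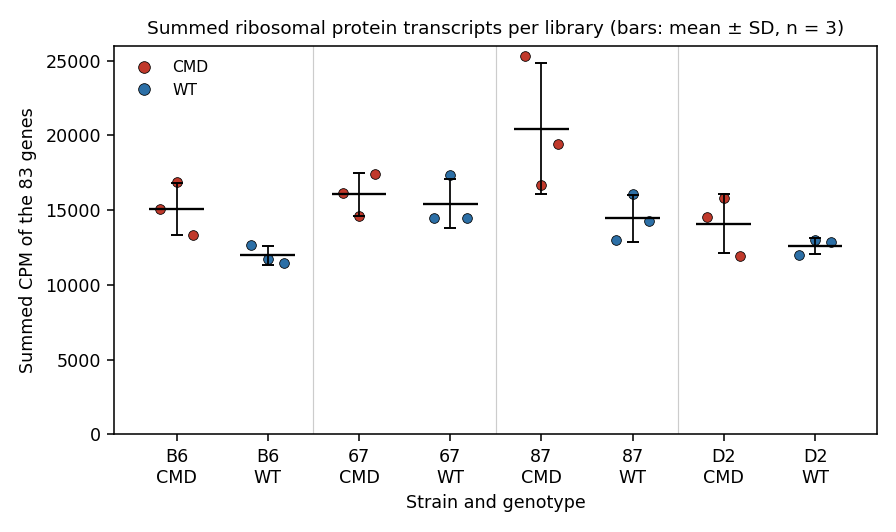
Summed level of the 83 ribosomal protein genes (CPM, vertical axis, from 0) in each library, by strain with CMD left of WT; points are libraries and bars the mean ± SD (n = 3). The CMD points lie above all WT points in B6 and 87, with library 16 of 87 CMD at 25280 CPM, and the groups overlap in 67 and D2.

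Gene by gene, the CMD effect was called in most of the family in 87, in a minority in B6 and in few genes in 67 and D2. Of the 83 genes, 82 passed the filter on low counts, and Rpl10l did not. In 87, 56 of 82 rose and 0 fell, where 11.5% of all tested genes rose and 9.38% fell, and the median log2 fold change was 0.51 against 0.01 over all genes. In B6, 13 rose and 0 fell (8.07% and 10.4% of all genes), with a median of 0.36 against 0.01. In D2, 4 rose and 1 fell (11.2% and 9.03%), with a median of 0.20 against 0.03, and in 67, 1 rose and 1 fell (11.4% and 10.3%), with a median of 0.09 against 0.00. In either direction 18.4% of all genes passed in B6, 21.7% in 67, 20.8% in 87 and 20.2% in D2. At an unadjusted p under 0.05, 71 genes passed in 87, 44 in B6, 13 in D2 and 6 in 67. The share of all genes was not counted at this threshold. It cannot be below the adjusted shares just given, so 13 and 6 of 82 are no excess.

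In B6 and 87 the direction was shared more widely than the calls. The fold change was above 0 in 79 of 82 genes in 87, 80 in B6, 72 in D2 and 59 in 67. The share of all genes above 0 is not given, and their medians were 0.01, 0.01, 0.03 and 0.00 in this order. Genes read in the same libraries are not separate observations. The family's median was 0.01 in 67 without library 12, and 0.06 in D2 without library 23. All 3 CMD libraries lay above all 3 WT libraries in 53 genes in B6 (19.7% of all tested genes), 47 in 87 (15.5%), 20 in D2 (21.4%) and 3 in 67 (22.2%). They lay below in 0 genes in B6 (21.6%), 0 in 87 (15.1%), 1 in D2 (21.5%) and 6 in 67 (21.8%). The 20 genes above in D2 are near the share of all genes, and the 3 in 67 are below it. Core proteins of both subunits were among the raised genes. In 87 the median was 0.51 over 43 large subunit genes, of which 30 rose, and 0.52 over 30 small subunit genes, of which 22 rose. In B6 it was 0.32 over the large subunit genes (7 rose) and 0.39 over the small subunit genes (4 rose). The 6 tested paralogues had medians of 0.10 in 87 and 0.26 in B6, with 1 raised in each.

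The count in 87 leaned on fitting all groups together and on single libraries. Fitted on the 87 libraries alone, 1 gene of the family rose, and 355 of all genes were called against 3083. The family's median was 0.51 in both of these fits. Without library 16, 11 of the 56 still rose, and without WT library 13 or 15 the counts were 15 and 17. The family's median was then 0.32, 0.42 and 0.50, and calls over all genes were 2202, 2277 and 1832 against 3083 with all libraries. Without libraries 16 and 23 together 17 rose in 87, 35 in B6, 1 in D2 and 2 in 67. The family's median was then 0.33, 0.37, 0.08 and 0.09 in this order. Calls over all genes were 2237, 3933, 2707 and 4322, against 3083, 2724, 2986 and 3210 with all libraries. In B6 the count was 1 without library 5, leaving Rpl3, and 2, 3 and 5 without libraries 3, 2 and 4. The family's median in these fits was 0.28, 0.34, 0.34 and 0.36, and calls over all genes were 1146, 1681, 1139 and 1890 against 2724. The effect of CMD differed between the strains in 1 of 82 genes, Rpl22l1, by the F test of the interaction (4.67% of all genes). At an unadjusted p under 0.05, 6 passed (share of all genes not counted). The larger count in 87 is therefore not shown to differ from the other strains gene by gene. With library totals in place of TMM scaling, 40 genes rose and 0 fell in B6, and 13 and 0 in 67. In 87 the counts were 44 and 0, and in D2 41 and 1. Calls over all genes in that fit were 2444, 3433, 2895 and 3587 in B6, 67, 87 and D2. The median over all genes moved to 0.14, 0.26, -0.01 and 0.30 in these strains.

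**Figure D2:**
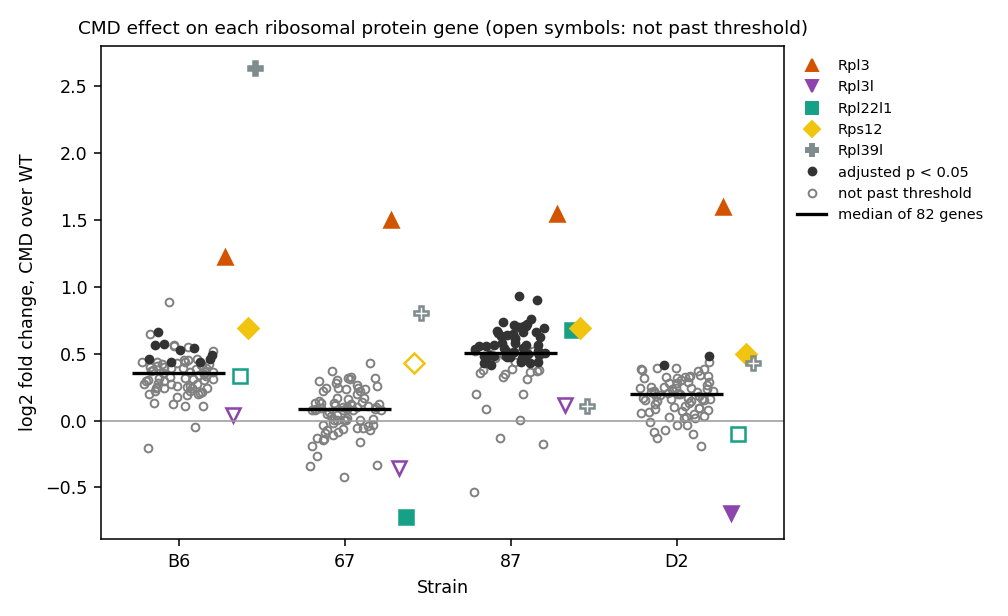
Log2 fold change of CMD over WT (vertical axis) for each of the 82 tested ribosomal protein genes in B6, 67, 87 and D2; filled symbols passed an adjusted p of 0.05, open ones did not, and the line is the median. The medians are 0.36, 0.09, 0.51 and 0.20, and Rpl3 is past the threshold in all 4 strains.

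Other measures also differed between CMD and WT. The mitochondrial share of reads was 20.5 to 21.8% in B6 CMD against 9.01 to 13.7% in B6 WT. In 87 it was 15.2 to 23.2% in CMD against 9.67 to 14.1% in WT. It was higher in 67 CMD too, at 14.9 to 18.8% against 10.98 to 12.3% in 67 WT. In D2 it was lower in CMD, at 9.16 to 12.4% against 13.2 to 15.7% in WT. The mitochondrial share was thus higher in all CMD libraries of B6, 67 and 87 than in their WT libraries, and lower in all of D2. Summed fibroblast markers (10 genes, none at 0) were at 1411 to 1575 CPM in B6 CMD against 576 to 1339 in B6 WT, and at 202 to 887 in 87 CMD against 815 to 1093 in 87 WT. Summed macrophage markers (12 genes, none at 0) ran from 218 to 299 CPM in B6 CMD against 80.5 to 247 in B6 WT, and from 115 to 217 in 87 CMD against 118 to 220 in 87 WT. Summed fibroblast markers were thus higher in all CMD libraries of B6, and 2 of the 3 CMD libraries of 87 were below every WT library. Gene by gene, 2 of 10 fibroblast markers and 0 of 12 macrophage markers rose in B6. In 87, Cd68 rose among the macrophage markers and Pdgfra fell among the fibroblast markers, and no other of these passed. Both calls were lost without library 16 (adjusted p = 0.105 and 0.113, edgeR). Of the 11 markers of regenerating fibres, 6 rose in each strain, and 1 fell in B6 and 2 in 87, while their summed level overlapped between the genotypes in every strain. Endothelial, lymphocyte, adipocyte and nerve markers had 1, 1, 0 and 0 raised genes in B6, and 0 of each in 87. In D2, 9 of 12 macrophage markers, 4 of 7 nerve markers and 2 of 10 fibroblast markers rose, and 2 of 9 endothelial markers fell. Summed nerve markers were at 85.8, 435 and 257 CPM in D2 CMD against 104, 77.3 and 75.8 in D2 WT. In 67, 4 of 12 macrophage markers and 4 of 10 fibroblast markers rose. The part of these measures in the counts was not tested.

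Rpl3 was raised in CMD in every strain. It encodes the universal large subunit protein next to the peptidyl transferase centre. In B6 it was at 72.5, 97.6 and 70.4 TPM in CMD and at 49.2, 31.4 and 34.2 TPM in WT. In 67 it was at 106, 96.4 and 136 TPM in CMD and at 38.8, 37.7 and 31.5 TPM in WT. The lowest CMD library lay above the highest WT library in both strains. In 87 it was at 148, 91.6 and 136 TPM in CMD and at 61.9, 42.9 and 44.0 TPM in WT. In D2 it was at 111, 229 and 127 TPM in CMD and at 49.4, 31.4 and 41.6 TPM in WT. The groups did not overlap here either, and D2 library 23 was the highest of all. The log2 fold changes were 1.23 ± 0.24 in B6, 1.50 ± 0.24 in 67, 1.54 ± 0.24 in 87 and 1.60 ± 0.24 in D2 (SE, n = 3 against 3, adjusted p = 0.00277, 0.000442, 0.000385 and 0.000303, edgeR). Rpl3 was the only one of the 82 genes raised in all 4 strains, as were 1.43% of all genes, and 0 of the 82 fell in all 4 (1.53% of all genes). It stayed past the threshold in all 4 with any 1 library left out, and the effect did not differ between strains past the threshold (adjusted p = 0.801).

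Rpl3l, the muscle paralogue, was raised in no strain and fell in D2. Its CPM were 421, 420 and 441 in B6 CMD and 417, 415 and 413 in B6 WT, and 406, 463 and 417 in 87 CMD and 352, 411 and 426 in 87 WT. In 67 they were 354, 416 and 357 in CMD and 476, 515 and 452 in WT. In D2 they were 390, 190 and 261 in CMD and 433, 436 and 488 in WT. On this TMM scale, all CMD libraries were thus below all WT libraries in 67 and D2. The CMD libraries were slightly above WT in B6 and overlapped with WT in 87. Rpl3l fell in D2 by 0.69 ± 0.17 on the log2 scale (SE, adjusted p = 0.00966), and did so with any 1 library left out (log2 fold changes of -1.01 to -0.50). With only the D2 libraries in the fit this call was lost, and the part of the D2 markers given above in it was not tested. In 67 the log2 fold change was -0.36 ± 0.17 (adjusted p = 0.147), in B6 0.04 (0.894) and in 87 0.11 (0.688), and the difference between strains did not pass (adjusted p = 0.115), except without D2 library 22 (0.00272).

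In TPM, Rpl3l in B6 was at 450, 470 and 506 in CMD and at 496, 557 and 510 in WT, lower on average in CMD and overlapping. The 67 groups overlapped in TPM too, at 465, 530 and 462 in CMD and 579, 584 and 518 in WT. The D2 groups did not, at 524, 326 and 427 TPM in CMD and 575, 532 and 595 in WT. Set against each other per length, Rpl3l made up most of the pair in every library, and a smaller share in CMD. Of the summed TPM of both genes, Rpl3l held 85.6 ± 2.54% in B6 CMD and 93.1 ± 1.92% in B6 WT, and 81.1 ± 3.67% in 67 CMD and 94.0 ± 0.277% in 67 WT. In 87 it held 78.4 ± 5.21% in CMD and 90.6 ± 1.72% in WT, and in D2 72.8 ± 12.5% in CMD and 93.3 ± 1.17% in WT (mean ± SD, n = 3). The share was below the WT libraries in all CMD libraries of each strain, lowest at 58.7% in D2 library 23. Differences of CMD minus WT were -7.55, -12.9, -12.2 and -20.6 percentage points in B6, 67, 87 and D2, and -13.5 in D2 without library 23. The transcripts of Rpl3l and Rpl3 were 74.4% identical over 1186 aligned bases and shared 0 of 1318 stretches of 58 bases, so reads of one could not be placed on the other without mismatches.

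**Figure D3:**
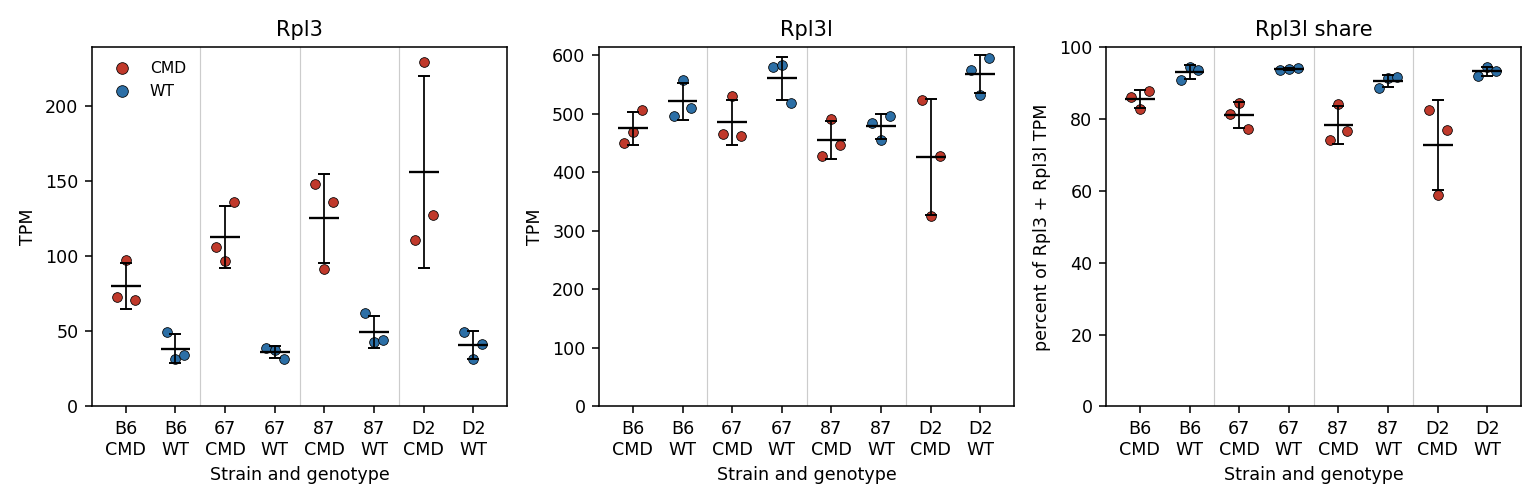
Rpl3 (TPM), Rpl3l (TPM) and the share of Rpl3l in their sum (percent) in each library, by strain with CMD left of WT; points are libraries and bars the mean ± SD (n = 3). Rpl3 lies higher in all CMD libraries of each strain, and the Rpl3l share lies lower, down to 58.7% in D2 library 23.

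Eef1a1 and Eef1a2 form a second pair of this kind, a general elongation factor that carries aminoacyl-tRNA to the ribosome and the form that replaces it in mature muscle. Eef1a1 was at 509, 558 and 580 CPM in B6 CMD against 354, 195 and 242 in B6 WT, and at 764, 652 and 987 in 67 CMD against 275, 291 and 240 in 67 WT. It was at 725, 655 and 769 CPM in 87 CMD against 313, 254 and 272 in 87 WT, and at 799, 1646 and 943 in D2 CMD against 383, 229 and 328 in D2 WT. No group of CMD overlapped its WT group, and the log2 fold changes were 1.06, 1.58, 1.36 and 1.85 in B6, 67, 87 and D2 (adjusted p = 0.00811, 0.00043, 0.00124 and 0.000159). Without library 2 the B6 call was lost (adjusted p = 0.0508). Eef1a2 passed in no strain, with log2 fold changes of -0.21, -0.15, -0.15 and -0.41 in the same order (adjusted p = 0.347, 0.514, 0.538 and 0.0663).

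Among the small subunit proteins, Rps12 and Rps29 rose in 3 strains. Rps12, a protein of the head of the small subunit known in Drosophila for its part in cell competition, was at 154, 188 and 139 CPM in B6 CMD against 110, 96.9 and 89.6 in B6 WT. In 87 it was at 251, 165 and 213 CPM in CMD against 124, 143 and 122 in WT, and in D2 at 178, 196 and 142 in CMD against 118, 122 and 126 in WT. The CMD libraries lay above the WT libraries in all 3, and also in 67, at 205, 153 and 186 CPM in CMD against 126, 152 and 126 in WT. The log2 fold changes were 0.69 in B6, 0.70 in 87 and 0.50 in D2 (SE 0.16 each, adjusted p = 0.00782, 0.00553 and 0.0372), and 0.43 in 67 (0.065). The B6 call was lost without library 5 (adjusted p = 0.0522), and the D2 call was lost in 16 of the 24 fits with 1 library left out. Rps29 rose in B6 by 0.44, in 87 by 0.63 and in D2 by 0.41 (SE 0.13 each, adjusted p = 0.0279, 0.00286 and 0.0347), and had 0.10 in 67 (0.622). Its CPM were 149, 173 and 144 in B6 CMD against 126, 117 and 101 in B6 WT, 253, 184 and 223 in 87 CMD against 131, 163 and 133 in 87 WT, and 194, 202 and 190 in D2 CMD against 151, 139 and 150 in D2 WT. Those groups did not overlap, and the 67 groups did. The B6 call of Rps29 was lost without library 2, 3 or 5 (highest adjusted p = 0.130), and the D2 call in 17 of the 24 fits.

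Other small subunit genes were called in 1 or 2 strains. Rps28, a small protein near the exit of the messenger RNA channel, was at 179, 87.7 and 140 CPM in 87 CMD against 61.6, 77.1 and 74.9 in 87 WT (0.93 ± 0.19, adjusted p = 0.00189). Rps13 was at 149, 174 and 144 CPM in B6 CMD against 110, 103 and 101 in B6 WT, and at 316, 163 and 201 in 87 CMD against 118, 156 and 133 in 87 WT. These CMD and WT groups did not overlap, and Rps13 rose by 0.57 in B6 (adjusted p = 0.0297) and by 0.74 in 87 (0.00637). Without library 16 its 87 value was 0.42 (adjusted p = 0.0576), and in B6 it was lost without any one of libraries 1, 2, 3, 4 and 5 (highest adjusted p = 0.131). Rps27a, which is made as a fusion to ubiquitin, rose in D2, at 184, 226 and 179 CPM in CMD against 125, 148 and 148 in WT (0.49, adjusted p = 0.0484), a call lost in 21 of the 24 fits with 1 library left out (0.35 at the lowest, highest adjusted p = 0.231).

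Large subunit genes other than Rpl3 were called in B6 and 87. Rpl41, a peptide at the interface of the subunits, was at 186, 204 and 176 CPM in B6 CMD against 130, 126 and 103 in B6 WT (0.66, adjusted p = 0.023), and was lost without library 2, 3 or 5 (highest adjusted p = 0.0913). Rpl23, which can bind the p53 regulator Mdm2 when free of the ribosome, was at 447, 267 and 356 CPM in 87 CMD against 188, 234 and 209 in 87 WT, with no overlap (0.76, adjusted p = 0.00236). Rpl23 was among the 11 genes still raised in 87 without library 16. In 87 the call was missed by 26 of 82 genes, 13 of them large subunit, 8 small subunit and 5 paralogues. Rpl29, Rpl10 and Rpl7l1 had log2 fold changes below 0 there, at -0.54, -0.18 and -0.13. Most reads of the Rpl10 sequence were counted on its copy Rpl10-ps3, at 536, 286 and 305 CPM in 87 CMD and 247, 296 and 266 CPM in 87 WT. Almost none of these were uniquely placed (3 of 20456 in library 16). The 2 transcripts were identical over 737 aligned bases, so which gene these reads came from cannot be told. With the reads of the copy added, Rpl10 in 87 came to 0.34 (adjusted p = 0.249).

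The stalk recruits the elongation factors to the ribosome. In 87 all 3 stalk genes rose. Rplp0, its base, was at 1372, 539 and 582 CPM in 87 CMD against 464, 461 and 410 in 87 WT (0.90 ± 0.24, adjusted p = 0.0122). Library 16 stood far above the other CMD libraries, and without it the value was 0.33 (adjusted p = 0.134), while leaving out WT library 15 also ended the call. Rplp1 was at 437, 315 and 362 CPM in 87 CMD against 246, 312 and 263 in 87 WT (0.44, adjusted p = 0.0416), and Rplp2 at 336, 217 and 295 in 87 CMD against 157, 196 and 170 in 87 WT (0.70, adjusted p = 0.0036). None of the 3 overlapped between the genotypes in 87, and the call of Rplp1 was lost in 12 of the 24 fits with 1 library left out. In B6, Rplp2 was at 207, 227 and 170 CPM in CMD against 164, 143 and 138 in WT (0.44, adjusted p = 0.0491), and Rplp0 at 687, 922 and 752 in CMD against 470, 510 and 525 in WT (0.65, adjusted p = 0.0639). The B6 groups did not overlap in either gene, and the call of Rplp2 there was lost in most fits with 1 library left out.

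The paralogues each have a core partner, and Rpl22l1 is the one with calls in opposite directions. Rpl22l1 is the relative of the RNA-binding protein Rpl22, which in mice represses it. It was at 31.0, 20.8 and 26.9 CPM in 67 CMD against 46.6, 43.7 and 39.4 in 67 WT, and at 68.0, 45.0 and 50.6 in 87 CMD against 30.7, 38.5 and 33.2 in 87 WT. The CMD libraries were all below WT in 67 and all above WT in 87. Rpl22l1 fell in 67 by 0.72 ± 0.20 on the log2 scale (adjusted p = 0.016) and rose in 87 by 0.68 ± 0.20 (adjusted p = 0.0221), and the difference between strains passed (adjusted p = 0.0228, but 0.0561 without library 11 and 0.061 without TMM scaling). It was at 32.6, 31.2 and 25.9 CPM in B6 CMD against 30.1, 20.4 and 20.8 in B6 WT, and at 36.1, 32.0 and 21.2 in D2 CMD against 34.7, 31.3 and 29.9 in D2 WT, where the groups overlapped and neither passed. The 67 call was lost without library 7 or 11 (highest adjusted p = 0.0805), and the 87 call without library 13, 15 or 16 (0.48 and adjusted p = 0.122 without 16). Rpl22 had log2 fold changes of 0.11, 0.00, 0.36 and 0.16 in B6, 67, 87 and D2 and passed in none.

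The remaining paralogues are mostly scarce in muscle. Rpl39l, the form of the exit tunnel protein Rpl39 found in male germ cells, had 8, 24 and 23 reads in B6 CMD against 2, 4 and 1 in B6 WT (2.63 ± 0.77, adjusted p = 0.0237), and this call was lost without library 1, 3, 5 or 6 (highest adjusted p = 0.0977). Its counts are too low to place it firmly, and it passed in no other strain. Rpl39 rose in 87 by 0.70 (adjusted p = 0.0142, and lost without library 13, 15 or 16, at 0.54 and 0.0766 without 16) and had 0.55 in B6 (0.0504). Rps4l had 0.89 in B6 (adjusted p = 0.165), and its partner Rps4x rose in 87 by 0.51 (0.00939, and lost without library 13 or 16, with a highest adjusted p of 0.059). Rpl7l1, the relative of Rpl7, lay between -0.19 and 0.12 in the 4 strains with no call, while Rpl7 rose in 87 by 0.45 (adjusted p = 0.0464), a call lost in most fits with 1 library left out. Rps27l, a p53 target, and Rps27 passed in no strain, and few reads of Rps27 were uniquely placed. Rpl10l, the germ cell form of Rpl10, had 8 reads in 1 library of B6 CMD, 2 in 1 of B6 WT and 3 in 1 of 67 WT, and 0 in the other 21 libraries. Rpl10 passed in no strain.

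In WT muscle the 4 backgrounds differed in 9 of 82 genes by an F test (8.66% of all genes). At an unadjusted p under 0.05, 24 passed (share of all genes not counted). The smallest p-values were those of Rpl21 (adjusted p = 0.00239), Rplp0 (0.00298), Rps18 (0.00364), Rpl34 (0.00542), Rpl29 (0.00654) and Rpl15 (0.00954). Between the parental strains, 0 genes were higher and 5 lower in D2 WT than in B6 WT (2.82% and 4.56% of all genes, 7.38% in either direction). Rplp0 was at 191, 221 and 221 CPM in D2 WT against 470, 510 and 525 in B6 WT (-1.25 ± 0.24, adjusted p = 0.00254), and Rpl29 at 43.5, 44.5 and 44.3 in D2 WT against 114, 104 and 106 in B6 WT (-1.29 ± 0.25, 0.00218). Rpl21 was at 50.6, 57.4 and 61.4 CPM in D2 WT against 123, 94.3 and 102 in B6 WT (-0.91 ± 0.20, 0.00653), and Rps2 at 237, 276 and 272 in D2 WT against 413, 462 and 399 in B6 WT (-0.70 ± 0.19, 0.0252). None of these groups overlapped, and the D2 CMD libraries were at the low level too, at 233, 254 and 232 CPM of Rplp0 and 46.1, 45.8 and 43.4 CPM of Rpl29. The call of Rps2 was lost without any one of libraries 1, 2, 3, 19, 20 and 21. Rpl28 was next, at 195, 201 and 200 CPM in D2 WT against 157, 143 and 145 in B6 WT, and did not pass (0.42, adjusted p = 0.0853). Without the 4 D2 libraries whose Y-linked reads went against the label, D2 WT keeps 1 library, which is assumed to vary like the other groups. In that fit 0 of these genes and 223 of all genes were called, against 1091 of all genes with every library.

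Rpl29 in the recombinant lines had values of both kinds. It was at 88.3, 40.6 and 95.4 CPM in 67 CMD against 88.2, 104 and 91.2 in 67 WT, and at 65.2, 47.0 and 97.5 in 87 CMD against 116, 100 and 87.8 in 87 WT. Library 11 of 67 CMD and library 17 of 87 CMD were thus near the D2 level, and library 16 of 87 CMD lay between. Single libraries of a line therefore differed by about as much as the parental strains did in this gene.

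Rps18, a protein of the head of the small subunit, was lowest in D2, and its value depends on a near-identical copy. It was at 36.5, 39.7 and 40.3 CPM in D2 WT against 123, 124 and 118 in B6 WT (-1.65 ± 0.35, adjusted p = 0.00476). Rps18-ps6, annotated as a protein-coding copy on chromosome 13, was at 104, 108 and 105 CPM in D2 WT and at no more than 0.365 CPM in any B6 library. With the reads of both summed, D2 WT over B6 WT came to 0.25 ± 0.16 on the log2 scale (adjusted p = 0.440). In D2 CMD, Rps18 was at 46.1, 48.7 and 34.3 CPM and the copy at 119, 134 and 100 CPM. In 67 the copy did not exceed 0.502 CPM, and Rps18 was at 161, 138 and 178 CPM in CMD and 153, 182 and 160 CPM in WT. In 87 the libraries were of both kinds. The copy was at 170, 50.5 and 0.615 CPM in 87 CMD, where Rps18 was at 84.2, 114 and 208, and at 93.7, 116 and 0.25 CPM in 87 WT, where Rps18 was at 42.6, 56.7 and 150. In 87 each library with the copy at 50.5 CPM or more had less Rps18 than the other library of its group, and the summed reads gave 0.45 for CMD over WT in 87 (adjusted p = 0.0536).

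The copy and Rps18 were 99.1% identical over 545 aligned bases, with 5 mismatches, and 266 of the 504 stretches of 58 bases in the copy occurred in Rps18 as well. A pair of coding stretches is shown because a read can be assigned to one gene only where they differ. They are from GENCODE vM21 on GRCm38, 30 bases each, around bases 186 and 371 of the Rps18 coding sequence, with the differing base in capitals.
Rps18 at 186: gaactcacggaggaTgaggtggagcgagtg
Rps18-ps6 at 186: gaactcacggaggaCgaggtggagcgagtg
Rps18 at 371: ccatagagggctgcGccacttttggggcct
Rps18-ps6 at 371: ccatagagggctgcAccacttttggggcct
The sequence of these genes in D2 was not analysed here, and which gene the reads came from was not tested.

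**Figure D4:**
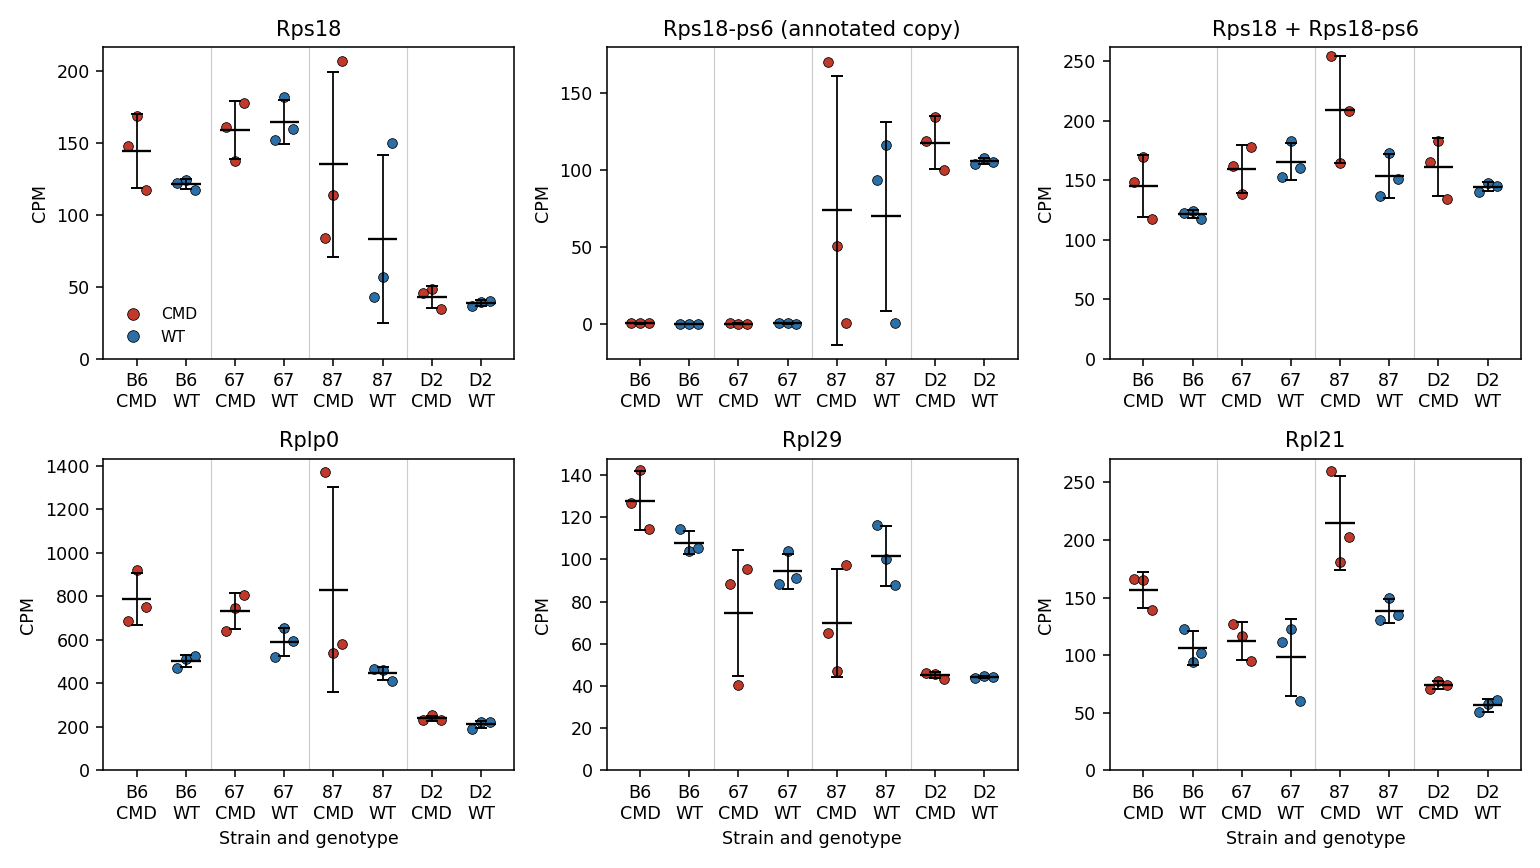
CPM of genes that differed between backgrounds, and of Rps18-ps6, in each library, by strain with CMD left of WT; points are libraries and bars the mean ± SD (n = 3). Rplp0, Rpl29 and Rps18 have their lowest WT group means in D2, and Rps18-ps6 is at 50.5 CPM or more in D2 and in 4 of the 6 libraries of 87, and at 0.615 CPM or less in the other libraries.

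The genes that make and use ribosomes were read from lists beside the family. Fau, which encodes a small subunit protein fused to a ubiquitin-like protein, and Rpsa, a small subunit protein, have names outside the naming rule. Fau rose in 87 by 0.56 (adjusted p = 0.0236) and Rpsa by 0.49 (0.0288), and neither passed in B6, 67 or D2. Both calls were lost without library 13, 15 or 16 (highest adjusted p = 0.164 for Fau and 0.234 for Rpsa). Of 28 genes of ribosome biogenesis, 0 rose and 2 fell in B6, 0 and 4 in 67, 7 and 1 in 87, and 0 and 1 in D2. Without library 16 the counts in 87 were 0 raised and 2 lowered. Dkc1, the pseudouridine synthase of ribosomal RNA, fell in all 4 strains, by 0.49, 0.61, 0.49 and 0.39 on the log2 scale in B6, 67, 87 and D2 (adjusted p = 0.0107, 0.00178, 0.00795 and 0.0284). Dkc1 was lost without library 2 or 5 in B6, without library 15 in 87 and without library 20, 21, 23 or 24 in D2. Of 15 genes of RNA polymerase I, which transcribes ribosomal RNA, 0 rose and 4 fell in B6, 0 and 3 in 67, 4 and 2 in 87 (0 and 2 without library 16), and 0 and 2 in D2. Rrn3, the factor that brings this polymerase to its promoter, fell in all 4, by 0.59, 0.66, 0.37 and 0.49 in the same order (adjusted p = 0.00194, 0.000527, 0.0215 and 0.00509). Its 87 call was lost without library 14, 15 or 18 (highest adjusted p = 0.135).

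Lists of regulators and of translation factors were read in the same way, against the shares of all genes given above for each strain, and counts of so few genes moved with single libraries. Of 22 genes of the mTOR and Myc pathways, 0 rose and 6 fell in B6, 0 and 6 in 67, 2 and 4 in 87 (0 and 5 without library 16), and 2 and 3 in D2. Rictor, a subunit of mTOR complex 2, fell in all 4 strains, by 1.08, 0.83, 0.78 and 0.76 in B6, 67, 87 and D2 (adjusted p = 0.00861, 0.0263, 0.0353 and 0.0413). Leaving out library 5 in B6, 9, 11 or 12 in 67, 13, 15, 17 or 18 in 87, and 20, 23 or 24 in D2 ended its call (highest adjusted p = 0.196). Myc, a transcription factor that drives ribosome genes, rose in D2 (1.19, adjusted p = 0.0203), a call lost without library 20, 21, 23 or 24 (highest adjusted p = 0.101). Ddit4, an inhibitor of mTOR complex 1, had 4.14 in 87 (adjusted p = 0.00733), with 315 CPM in library 16, and 0.83 (adjusted p = 0.402) without it. Of 17 initiation factors, 0 rose and 2 fell in B6, 0 and 7 in 67, 2 and 2 in 87 (1 and 5 without library 16), and 0 and 4 in D2. Of 15 elongation factors and other TOP transcripts, 1 rose in B6 and in 67, 5 in 87 (1 without library 16) and 2 in D2, with Eef1a1 among them each time. In that list 1 gene fell in B6 and 0 in the other strains. Of 12 tested genes of ribosome quality control and stress, 0 rose and 3 fell in B6, 0 and 2 in 67, 1 and 1 in 87 (0 and 2 without library 16), and 1 and 1 in D2.

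**Figure D5:**
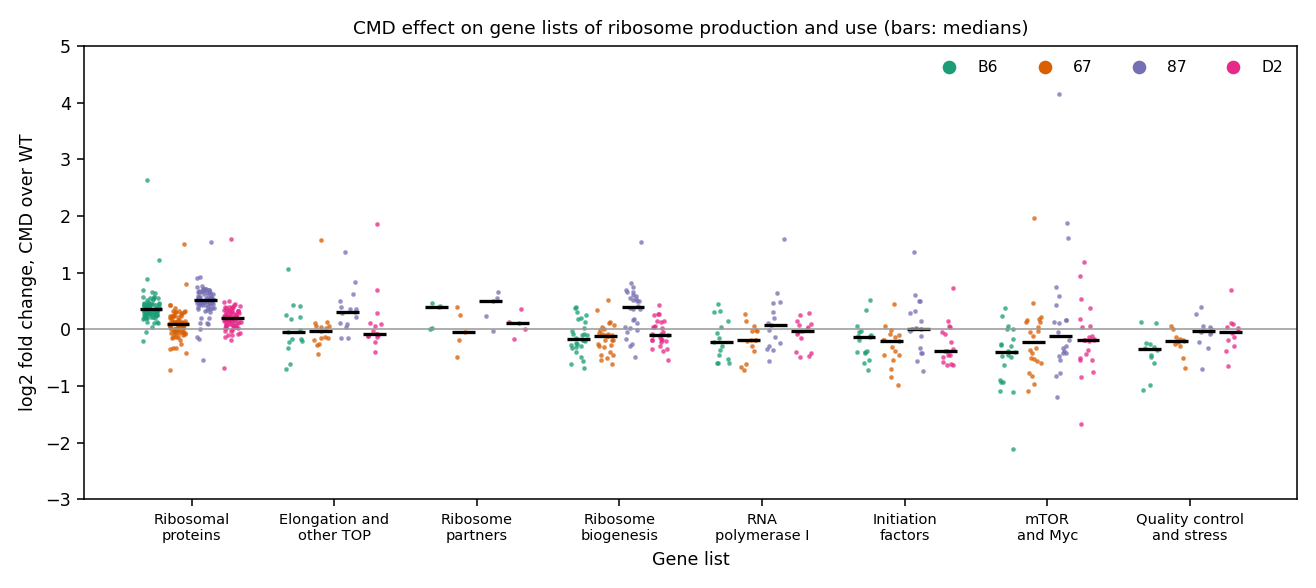
Log2 fold change of CMD over WT (vertical axis) of each tested gene in the ribosomal protein family and in 7 related lists (horizontal axis), coloured by strain, with bars at the medians. The family's medians (0.36 in B6, 0.09 in 67, 0.51 in 87 and 0.20 in D2) stand beside medians of -0.17 in B6 and 0.40 in 87 for ribosome biogenesis.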

How the data were processed

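Total RNA of 24 left quadriceps was extracted with TRIzol and sequenced from a stranded mRNA library kit as paired reads of 58 bases, per the labels' protocols. The authors deposited total and unique exon read counts per gene, which were used as raw counts, and TPM, which served only for levels set against each other per length. The submitters' processing notes name GRCm39 and mm39; the aligner and counter were not given in the sources used here. Counts were fitted with edgeR 4.0.16 (TMM, filterByExpr with a minimum count of 10 and a minimum total of 15, quasi-likelihood F tests) over 8 groups and 24 libraries, without a sex term, on 14789 genes, with Benjamini-Hochberg adjustment over all of them and a threshold of 0.05. CPM use TMM-scaled library sizes, standard errors come from the fold change and its F value, and fitted values were tested on simulated data. Depth was 32292613 to 51715975 exon reads per library. P-values measure the spread between these separate samples.

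Alternatives were unique reads, 2 codings of sex, other scalings and filters, DESeq2 1.42.0, a fold limit of 0.5 (log2), each comparison fitted on its own libraries, and libraries left out. Fitting without TMM and adding the reads of annotated copies were chosen after seeing the data. The genes and lists were chosen with earlier results of these data known. Values are given for the paralogues with their partners, the stalk, the most changed genes per strain and per test, and the extremes of level and of unique share; Fau, Rpsa, Dkc1, Rrn3, Rictor and Eef1a2 are named in addition. Marker lists for regenerating fibres, fast fibres, macrophages, fibroblasts, endothelium, lymphocytes, adipocytes and nerve were read beside the results. Sequences were read with Biopython 1.88. One gene is not reported here.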

Additional observations from a re-analysis of the deposited data

Results flagged for a closer look

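Rpl22l1 moved in opposite directions in the recombinant lines. All 3 CMD libraries lay below all 3 WT libraries in 67 (20.8 to 31.0 CPM in CMD, 39.4 to 46.6 in WT) and above them in 87 (45.0 to 68.0 in CMD, 30.7 to 38.5 in WT), and the F test of the difference between the 4 strains passed (adjusted p = 0.0228, edgeR). It was 0.0561 without library 11 and 0.061 without TMM scaling.

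In TMM-scaled CPM, Rpl3l lay above WT in all 3 CMD libraries of B6 and below WT in all 3 of 67 and of D2. The difference between the 4 strains did not pass the same test (adjusted p = 0.115), except without D2 library 22 (0.00272). The B6 separation is small in TMM-scaled CPM, at 420 to 441 CPM in CMD and 413 to 417 CPM in WT. In TPM the B6 groups overlapped, at 450 to 506 in CMD and 496 to 557 in WT. The 67 groups overlapped in TPM as well, at 462 to 530 in CMD and 518 to 584 in WT.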

How the results depend on the processing

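Main counts of raised genes are 13 in B6, 1 in 67, 56 in 87 and 4 in D2, with 1 lowered in 67 and in D2. Calls over all genes in that fit were 2724, 3210, 3083 and 2986 in B6, 67, 87 and D2, the order used below. With labelled sex, B6 had 26 raised, 67 had 2 lowered, D2 had 1 raised, and 3 genes differed between strains. Calls over all genes were then 2665, 3611, 3547 and 3754. With sex from Y-linked reads, B6 had 36, 67 had 2 lowered and D2 had 15 raised. Calls over all genes were then 2978, 3372, 3683 and 2482. Without the filter, B6 had 7, 87 had 37 and D2 had 1, with 2396, 2896, 2822 and 2900 of all 18539 genes tested called. With the ribosomal genes left out of the TMM factors, D2 had 1, with 3145 of all genes called there. Fitted on the compared libraries alone, B6 had 21 raised, 67 had 2 raised and 2 lowered, and D2 had 0 lowered. In 87, 1 was raised (355 of all genes called against 3083, with the family's median at 0.51 in both). In B6, 67 and D2, 2959, 3644 and 2281 of all genes were called. In such fits 24 differed between WT strains (1815 of all 14037 genes tested, against 1281 of 14789 in the main fit). Between D2 WT and B6 WT 10 differed (975 of 13572, against 1091 of 14789). DESeq2 gave 24 in B6 (3304 of all genes, against 2724). It gave 2 genes that differed between strains (1732 of all genes, against 690). A fold limit of 0.5 (log2) gave 8 in B6 and 1 in D2, and the share of all genes is not given for it. Without libraries 16 and 23, B6 had 35, 67 had 2 raised and 3 lowered, 87 had 17 and D2 had 1. Calls over all genes were then 3933, 4322, 2237 and 2707. Without D2 libraries 19, 21, 22 and 24, B6 had 8, 67 had 2 lowered, D2 had 1 raised, and 0 differed in the effect between strains, between WT strains, or between D2 WT and B6 WT. Without TMM, B6 had 40, 67 had 13 raised and 0 lowered, D2 had 41, 0 differed between strains and the summed level had a median log2 difference of 0.44 (0.24 with TMM). That scaling also moved the median of all genes to 0.14, 0.26, -0.01 and 0.30 in B6, 67, 87 and D2, and those of the ribosomal genes to 0.49, 0.34, 0.49 and 0.48. The cause was not tested for any of these shifts beyond what each alternative leaves out.

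Leaving out 1 library at a time gave 1 to 32 raised in B6, 1 to 2 raised and 0 to 2 lowered in 67, 11 to 68 raised and 0 to 1 lowered in 87, and 1 to 4 raised in D2. It gave 0 to 3 genes whose effect differed between strains, 4 to 13 that differed between WT strains and 4 to 6 between D2 WT and B6 WT. The ends of the B6 range came without libraries 5 and 16, with 1146 and 3798 of all genes called. Those of the 87 range came without libraries 16 and 17, with 2202 and 3741 of all genes called. Those between WT strains came without libraries 19 and 16, with 603 and 1963 of all genes called. Unique reads and DESeq2's size factors in edgeR moved no count by over 1.5 times. With the reads of annotated copies added, Rps18 in D2 WT over B6 WT was 0.25 against -1.65. Rpl10, which passed in neither fit, changed sign too, at 0.07 against -0.20 in B6, 0.34 against -0.18 in 87 and 0.12 against -0.03 in D2. No paired analysis was possible because the libraries are numbered 1 to 24 and groups share no number.

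With 3 libraries a group, depth was not the limit for most of these genes. It was for Rpl39l, Rps4l and Rpl10l, which had few reads. Reads that fit several genes limit Rps27, Rpl10, Rpl13a, Rpl9 and Rps23.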
